A study of Mus musculus with 5 samples.

Results

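The genes described here are those of cellular iron storage, iron uptake and their control, 7 of the 20365 gene names in the SLAMseq tables of cultured mouse cardiac fibroblasts (CF). They are the ferritin subunit genes *Fth1* and *Ftl1*, the transferrin receptor gene *Tfrc*, the iron regulatory protein genes *Aco1* and *Ireb2*, and *Pcbp1* and *Pcbp2*, whose products are iron chaperones. They were chosen by name, and all 7 had reads in every library. CF had been isolated by Langendorff perfusion with collagenase from hearts of healthy adult male C57Bl/6J wildtype mice and grown to confluency. In SLAMseq, the uridine analog 4-thiouridine (S4U) is built into RNA made during the labeling time, and after alkylation an S4U base appears as a C at a T position. The labeled group held 3 libraries from CF kept for 12 h in medium with 0.1 mM S4U, and the unlabeled group held 2 libraries from CF kept for 12 h without S4U. The methods speak of separate CF preparations and of controls kept in parallel, but neither they nor the labels tie each library to its own mice, so p-values measure the spread between these libraries, which may in part be technical.

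Ferritin is a hollow protein shell in which cells keep iron, and it is built from heavy chains, which oxidize iron, and light chains, which help the iron core form. Transferrin receptor 1 brings iron-loaded transferrin into the cell. When iron is scarce, the iron regulatory proteins bind hairpins called iron-responsive elements: at the 5′ end of ferritin transcripts this blocks translation, and in the 3′ UTR of the *Tfrc* transcript it protects the RNA from decay.

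The hairpins are the sequences through which ferritin and *Tfrc* are controlled in opposite ways, so they are printed here as they stand in the GRCm39 genome. The motif searched was a bulged C, 5 stem bases of any kind, a loop of 6 bases that begins CAGTG and ends in any base but G, and 5 bases that pair with the stem, G-T pairs allowed, 17 bases in all. In the 3′ UTR interval of *Tfrc* on chr16, plus strand, 4 matches were found, each printed 5′ to 3′ with its loop in capitals.

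*Tfrc* hairpin 1, chr16:32450038-32450064: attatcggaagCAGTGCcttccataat
*Tfrc* hairpin 2, chr16:32450417-32450443: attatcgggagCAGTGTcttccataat
*Tfrc* hairpin 3, chr16:32450482-32450508: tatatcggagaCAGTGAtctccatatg
*Tfrc* hairpin 4, chr16:32450529-32450555: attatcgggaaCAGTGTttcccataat

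Each ferritin gene held 1 match in the 5′ UTR of its first exon, on the plus strand for *Fth1* and the minus strand for *Ftl1*.

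*Fth1* hairpin, chr19:9960097-9960123: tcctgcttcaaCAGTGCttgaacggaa
*Ftl1* hairpin, chr7:45109204-45109230: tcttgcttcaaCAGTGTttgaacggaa

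None of the other 6 genes matched in its 3′ UTR interval, and *Tfrc*, *Aco1*, *Ireb2*, *Pcbp1* and *Pcbp2* had no match at the 5′ end. Of 20329 intervals, 1 per gene, 82 (0.403%) matched on the transcript strand and 62 (0.305%) on the opposite strand, and *Tfrc* was the only gene whose interval held 2 or more. A match is a sequence description only. No reads were counted on the 5′ ends of the ferritin transcripts, since the libraries read 3′ ends.

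The intervals on which reads were counted differed in length and T content. The *Fth1* interval (ENSMUSG00000024661.9, chr19:9962307-9962475, 169 bases, 61 of them T) covered the end of the last of 4 exons and ran 13 bases past the annotated end. The *Ftl1* interval (ENSMUSG00000050708.18, chr7:45107368-45107530, minus strand) lay in the 3′ UTR and was 163 bases long with 35 T. The *Tfrc* interval (ENSMUSG00000022797.18, chr16:32449155-32451612) was 2458 bases of 3′ UTR with 858 T, and a shorter *Tfrc* interval of 1911 bases with the same start held at most 2 reads in any library. *Tfrc* reads therefore came almost entirely from the far end of its longer 3′ UTR, past the 4 hairpins.

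The intervals of both iron regulatory protein genes lay within the UTR of their canonical transcripts. *Aco1* (ENSMUSG00000028405.11) was counted on chr4:40197668-40199009 and *Ireb2* (ENSMUSG00000032293.10) on chr9:54817026-54819814. *Pcbp2* (ENSMUSG00000056851.17) was counted on chr15:102406961-102408494, within 1 exon but not wholly within the UTR of the canonical transcript. *Pcbp1* (ENSMUSG00000051695.8), a gene of 1 exon, was counted on chr6:86501462-86501826, minus strand, 6 bases of which lie past its annotated end. Genes on the opposite strand overlap the intervals of *Tfrc* (Gm60415), *Pcbp1* (1600020E01Rik) and *Pcbp2* (Map3k12), and a microRNA model on the same strand, Gm56125, overlaps that of *Ftl1*.

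Between 506045 and 1842706 reads per library fell on 1 interval per gene, with labeled replicate 3 the shallowest. All 10 fibroblast markers were read in every library, with summed levels of 41862 to 45447 CPM in labeled and 34452 to 37386 CPM in unlabeled libraries. Here CPM stands for reads per 1000000 reads, out of those counted on 1 interval per gene. The corresponding sums were 114 to 167 against 129 to 186 CPM for 10 macrophage markers, of which 9 were read in every library, and 145 to 256 against 179 to 263 CPM for 8 endothelial markers, of which 7 were. They were 24.1 to 75.1 against 33.1 to 96.4 CPM for 6 mural markers, 2.54 to 8.37 against 2.17 to 9.04 CPM for 8 cardiomyocyte markers, and 0 against 0 to 4.88 CPM for 7 erythroid markers, 4 of which were at 0 in all 5 libraries.

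*Fth1* had the most reads of the 7 genes in every library, and *Tfrc* had the fewest in all but the libraries numbered 1, where *Ftl1* had fewer. *Fth1* stood at 1088, 1422 and 1437 CPM in labeled replicates 1 to 3 and at 1026 and 1417 CPM in unlabeled replicates 1 and 2. The libraries numbered 1 were the lowest of each group, and the groups overlapped. Its mean was 1278 ± 203 CPM (SD, n = 5). The order of the libraries depended on the scaling. The deposited CPM, which divides by more reads than were counted on the intervals, gave *Fth1* 144, 121 and 49.7 in the labeled libraries. It gave 130 and 129 in the unlabeled ones, so on that scale the libraries numbered 1 were the highest of each group. *Tfrc* stood at 23.5, 31.0 and 19.8 CPM in the labeled and at 52.1 and 60.2 CPM in the unlabeled libraries. All 3 labeled values lay below both unlabeled ones, on 10 to 96 reads per library. Its mean was 37.3 ± 17.9 CPM (SD, n = 5).

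*Ftl1*, the light chain, was the gene of the 7 whose level differed most between replicate numbers. It stood at 15.2, 421 and 273 CPM in the labeled and at 14.7 and 293 CPM in the unlabeled libraries. The libraries numbered 1 of both groups held 24 and 27 *Ftl1* reads, against 138 to 503 in the other 3. No mean level of *Ftl1* is therefore representative, and its mean of 203 CPM has an SD of 181 (n = 5).

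The regulators lay between. *Ireb2*, iron regulatory protein 2, whose protein is degraded when iron is plentiful, stood at 174, 77.0 and 77.1 CPM in the labeled and at 200 and 96.4 CPM in the unlabeled libraries. *Aco1*, the cytosolic aconitase that becomes iron regulatory protein 1 when it loses its iron-sulfur cluster, stood at 103, 39.3 and 35.6 against 110 and 69.3 CPM. Both were highest in the libraries numbered 1, the reverse of *Fth1* and *Ftl1*, and the groups overlapped. In the deposited CPM the contrast held for *Ftl1* but not for *Fth1*, which was also highest in the libraries numbered 1. *Pcbp1*, which hands iron to ferritin, stood at 567, 299 and 449 against 510 and 300.2 CPM. *Pcbp2*, which takes part in the same delivery and also binds iron transporters, stood at 794, 480.3 and 613 against 701 and 518 CPM. For both chaperones the group ranges overlapped, and the libraries numbered 1 were the highest of each group.

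**Figure D1:**
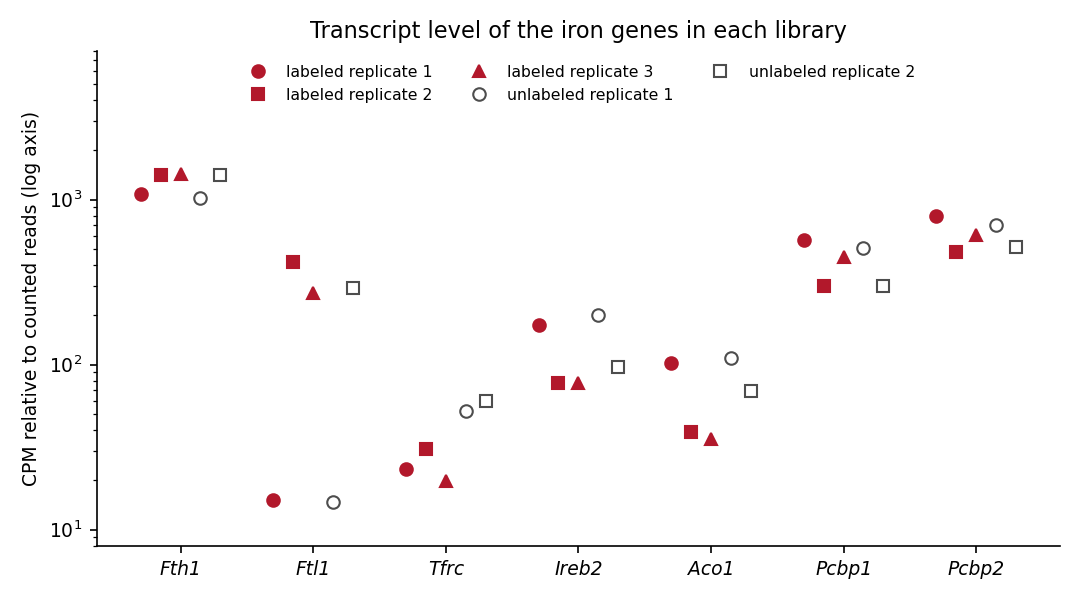
Transcript levels of the 7 genes in CPM relative to counted reads (log axis), 1 point per library, filled for labeled and open for unlabeled libraries, with the replicate number as the symbol. *Ftl1* stands at 421 and 273 CPM in labeled replicates 2 and 3 and at 15.2 and 14.7 CPM in the libraries numbered 1, and the labeled *Tfrc* points (19.8 to 31.0 CPM) lie below the unlabeled ones (52.1 and 60.2 CPM).

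Levels of different genes were also set side by side in CPM per kilobase of the counted interval. The libraries read 3′ ends, so reads need not scale with the length of an interval, and differences on this scale hold the interval lengths as well as the levels. On this scale *Fth1* ranged from 6072 to 8501, above every other gene in every library. *Pcbp1* ranged from 818 to 1552 and *Pcbp2* from 313 to 517, the reverse of their order in CPM, where *Pcbp2* was higher in all 5 libraries; their intervals are 365 and 1534 bases long. *Ftl1* ranged from 89.9 to 2582 and crossed both. *Aco1* (26.5 to 82.1) and *Ireb2* (27.6 to 71.6) overlapped, and *Tfrc* was lowest with 8.04 to 24.5 CPM per kilobase.

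The ratio of storage to uptake transcripts was read within each library, where library scaling cancels. *Fth1* had 46.3, 45.9 and 72.7 reads per *Tfrc* read in the labeled libraries and 19.7 and 23.5 in the unlabeled ones. All 3 labeled ratios lay above both unlabeled ratios, and the group means differed by 1.32 on the log2 scale (exact permutation test over 10 splits, two-sided p = 0.10, the smallest that 3 libraries against 2 allow, and 0.30 after Benjamini-Hochberg adjustment over 3 ratios). *Fth1* exceeded *Tfrc* by 5.22 ± 0.78 (SD, n = 5) on the log2 scale in reads and by 9.08 in reads per kilobase, where the difference in interval length is added. *Ftl1* had 0.649, 13.6 and 13.8 reads per *Tfrc* read against 0.281 and 4.87, ranges that overlapped (difference 2.08 on the log2 scale, exact permutation p = 0.50, adjusted 0.75). *Fth1* had 71.4, 3.38 and 5.27 reads per *Ftl1* read in the labeled and 70.0 and 4.83 in the unlabeled libraries. This ratio was far higher in the libraries numbered 1 of both groups than in the others. No difference between the groups was detected (exact permutation p = 0.80, adjusted 0.80), but with this spread the test could hardly show one.

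Newly made RNA was detected for all 7 genes. The T>C conversion rate is the share of T positions covered by reads that were read as C. A T position counts once for each read that covers it, so covered T positions can outnumber the T of an interval. In a beta-binomial likelihood-ratio test of labeled against unlabeled libraries, called at an unadjusted p below 0.05, all 7 were raised, where 95.1% of 11177 genes and 94.6% of 19240 intervals were. The unadjusted beta-binomial p ran from 1.32e-08 for *Fth1* to 0.000630 for *Tfrc*, and from 2.10e-07 to 7.42e-06 for *Pcbp2*, *Ireb2*, *Aco1* and *Ftl1*, with 7.77e-08 for *Pcbp1*. A share this high leaves nothing particular to the iron genes in that count, and the sizes of the rates are described next. As a reference, 2103 deeply covered genes (each library had 1000 or more covered T positions there) showed a median labeled rate of 0.0388, with quartiles of 0.0343 and 0.0422, and a median unlabeled rate of 0.000504.

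Both ferritin chains carried less conversion than most genes. *Fth1* had rates of 0.0312, 0.0292 and 0.0295 in labeled replicates 1 to 3, on 43883, 38630 and 18330 covered T positions, and 0.000209 and 9.73e-05 in the unlabeled libraries. The labeled mean of 0.0300 ± 0.00108 (SD, n = 3) lay above that of 15.7% of the 2103 genes. *Ftl1* had rates of 0.0359 (Wilson 95% interval 0.0190 to 0.0667), 0.0297 (0.0256 to 0.0344) and 0.0285 (0.0213 to 0.0380) in the labeled libraries. In the unlabeled libraries it had 0 of 285 covered T positions and 4 of 3269. The first allows a rate of up to 0.0105, taken as 3 over the covered T positions, where the Wilson upper bound was 0.0133. Every limit given here for 0 conversions is 3 over the covered T positions. Its labeled mean of 0.0313 ± 0.00396 (SD, n = 3) differed from that of *Fth1* by 0.00138 ± 0.00294, and was higher in 2 of 3 libraries (exact sign-flip permutation p = 0.75).

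*Tfrc* had the widest spread of rates. They were 0.0277 (20 of 722 covered T positions), 0.0332 (28 of 843) and 0.0102 (2 of 196) in the labeled libraries. The third value came from 10 reads and had a Wilson 95% interval of 0.00280 to 0.0364, which holds the other two values, so a difference between these libraries was not detectable at this depth. In the unlabeled libraries *Tfrc* had rates of 0.00371 (7 of 1885) and 0.00228 (3 of 1313), and their mean lay above that of 96.7% of the 2103 genes. The labeled mean of 0.0237 ± 0.0120 (SD, n = 3) lay above that of 10.5% of those genes. Intervals and limits cover counting error only. They treat each covered T position as independent, although many lie on the same read, so they may be too narrow.

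Ferritin and *Tfrc* were not separated by their rates. *Tfrc* minus *Fth1* was -0.00350, 0.00404 and -0.0193 in the 3 labeled libraries, with a mean of -0.00626 ± 0.0119 (SD; exact sign-flip permutation test, two-sided p = 0.75, where the smallest possible is 0.25). Without labeled replicate 3, the mean difference was 0.000272. *Tfrc* minus *Ftl1* was -0.00816, 0.00352 and -0.0183, with a mean of -0.00764 ± 0.0109 (SD; exact permutation p = 0.50). Both differences took both signs across libraries. Among the 9 pairs of genes compared, the adjusted p (Benjamini-Hochberg) was 0.75 for the first and 0.643 for the second.

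The iron regulatory protein transcripts carried more conversion than *Fth1* in every labeled library. *Ireb2* had rates of 0.0443, 0.0514 and 0.0482 and a mean of 0.0480 ± 0.00359 (SD, n = 3), above that of 97.1% of the 2103 genes. Its unlabeled libraries held 1 conversion in 9370 covered T positions and 0 in 2622, which allows a rate of up to 0.00114. *Aco1* had rates of 0.0407, 0.0473 and 0.0463 and a mean of 0.0447 ± 0.00352, above that of 87.8% of those genes. *Ireb2* exceeded *Fth1* by 0.0180 ± 0.00463 and *Aco1* exceeded it by 0.0148 ± 0.00460, each in 3 of 3 libraries. *Ireb2* also exceeded *Aco1* in 3 of 3 libraries, by 0.00322 ± 0.00118. Each of these differences had the smallest exact permutation p that 3 libraries allow, 0.25, and an adjusted p of 0.375, so none could pass 0.05.

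The chaperones were intermediate. *Pcbp1* had rates of 0.03998, 0.0362 and 0.0355 and a mean of 0.0372 ± 0.00242 (SD, n = 3), above that of 39.0% of the 2103 genes. *Pcbp2* had rates of 0.0402, 0.0460 and 0.0410 and a mean of 0.0424 ± 0.00316, above that of 76.0%. Both exceeded *Fth1* in 3 of 3 libraries, by 0.00726 ± 0.00143 and 0.0125 ± 0.00402, and *Pcbp2* exceeded *Pcbp1* in 3 of 3 by 0.00519 ± 0.00482 (exact permutation p = 0.25 each, adjusted 0.375). In labeled replicate 1 the gap between the chaperones was only 0.000185.

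**Figure D2:**
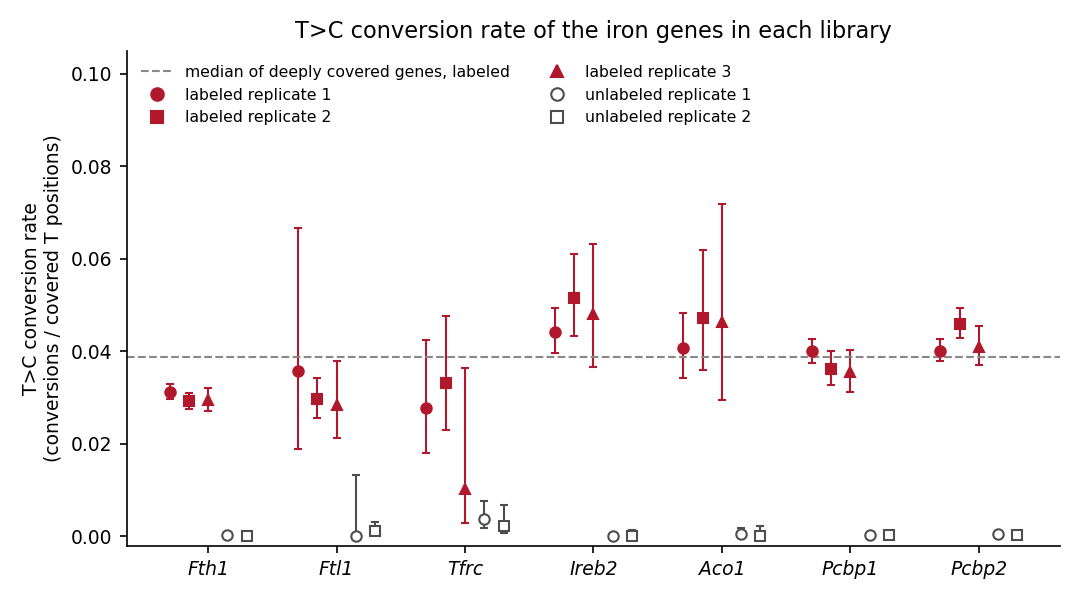
T>C conversion rate (conversions per covered T position) of the 7 genes in each library, with Wilson 95% intervals for counting error, filled points for labeled and open points for unlabeled libraries. The dashed line is the labeled median of 2103 deeply covered genes (0.0388); both ferritin genes lie below it in every labeled library, *Ireb2* and *Aco1* lie above it, and the intervals of *Tfrc* are wide.

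**Figure D3:**
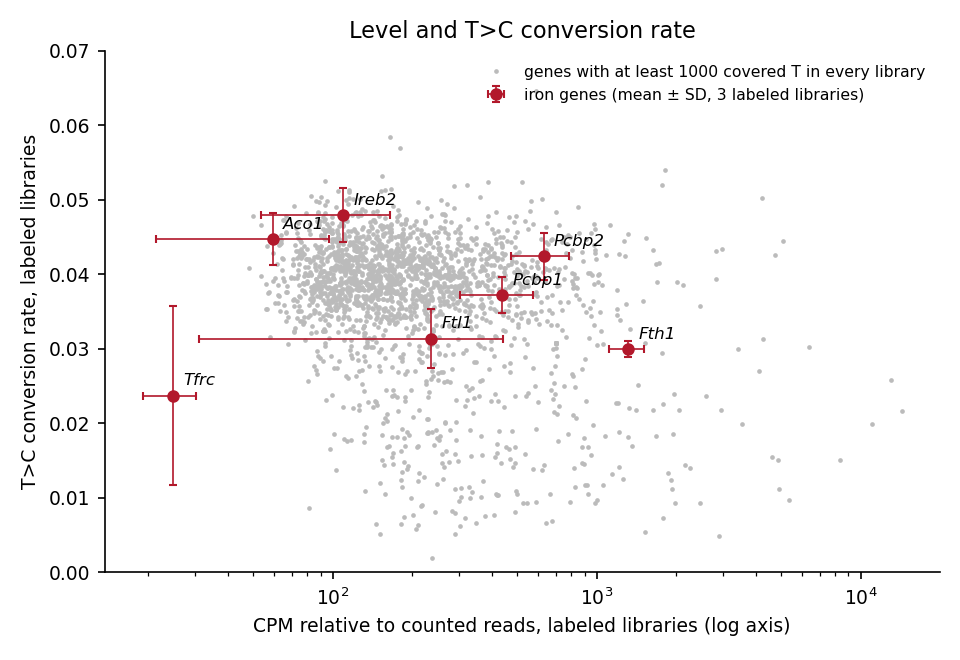
Mean labeled T>C conversion rate against mean labeled level in CPM relative to counted reads (log axis) for the 2103 deeply covered genes (grey) and for the 7 iron genes (red, mean ± SD over 3 labeled libraries). *Fth1* combines a high level with a rate of 0.0300, while *Tfrc* has the lowest mean rate of the 7, with a spread that overlaps those of both ferritin genes.

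The share of reads with any conversion gave the same order at its ends. It was 43.7 ± 2.24% for *Fth1*, 37.0 ± 8.16% for *Ftl1* and 33.7 ± 12.2% for *Tfrc* (SD, n = 3). It was 63.8 ± 3.16% for *Ireb2*, 59.8 ± 6.83% for *Aco1*, 60.1 ± 2.18% for *Pcbp1* and 60.01 ± 4.80% for *Pcbp2*. This share depends on how many T a read covers. Within the counted interval there were 10.5 to 11.7 per read for *Ftl1* and 21.9 to 25.6 for *Fth1*. T outside the interval are not in these values. *Ftl1* had more converted reads than conversions in labeled replicates 1 (11 against 9) and 2 (179 against 174), but not in replicate 3 (41 against 44). The chains therefore cannot be ranked by this share.

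Total reads of the 7 genes were then compared between labeled and unlabeled libraries with edgeR's quasi-likelihood test, in which 0 of 9806 genes passed a Benjamini-Hochberg adjusted p of 0.05 (0% in either direction). At an unadjusted p below 0.05 there were 586 genes (5.98%), and DESeq2 called 13 higher (0.184%) and 5 lower (0.0709%) of 7056 genes at its adjusted p. By direction, 2.85% of genes were higher and 3.13% lower at the unadjusted p. Of the 7 genes, 0 passed the adjusted p with either tool, and 1, *Tfrc*, was below the unadjusted 0.05 in edgeR. In bulk RNA, fewer cells of a type and less RNA per cell cannot be told apart.

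*Tfrc* was lower in the labeled libraries by 1.09 ± 0.32 (SE) on the log2 scale, a ratio of 0.471 to the unlabeled libraries (edgeR unadjusted p = 0.0113, adjusted p = 0.678). Its log2 fold change stayed between -1.28 and -0.93 when each library was left out in turn. With the replicate number as a block, edgeR called it lower (log2 fold change -1.005, adjusted p = 0.00111), in a fit that called 529 genes higher (5.39%) and 617 lower (6.29%). The other 6 genes did not pass in that fit. Every labeled library lay below both unlabeled ones, as 13.1% of the 9806 genes did, so this separation was not rare. *Fth1* had a log2 fold change of 0.18 ± 0.29 (SE) and *Ftl1* one of 0.68 ± 1.39. Each edgeR adjusted p was 0.999. The interval of 2 SE on either side ran from -0.40 to 0.76 for *Fth1*, and from -2.11 to 3.46 for *Ftl1*, which leaves several-fold changes of *Ftl1* in both directions undetectable.

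The regulators and chaperones had log2 fold changes of -0.35 ± 0.45 for *Ireb2*, -0.50 ± 0.48 for *Aco1*, 0.20 ± 0.35 for *Pcbp1* and 0.13 ± 0.29 for *Pcbp2* (SE; edgeR adjusted p = 0.999 each). None of these 4 separated the groups. The sign of the value for *Fth1*, *Ftl1*, *Ireb2*, *Pcbp1* and *Pcbp2* depended on which library was left out. The *Aco1* value was negative with each library left out, and ranged from -1.16 to -0.17.

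The low *Ftl1* count in both libraries numbered 1 was set against the same difference in other genes. Among 4619 genes with at least 20 reads in every library, *Ftl1* had the lowest difference between the libraries numbered 1 and those numbered 2, -4.56 on the log2 scale, with -4.79 in the labeled and -4.32 in the unlabeled pair. The median gene differed by 0.08, and 95% of genes lay between -1.82 and 1.19. *Fth1* differed by -0.43, *Pcbp2* by 0.58, *Pcbp1* by 0.84 and *Ireb2* by 1.11, all within that range. *Tfrc* and *Aco1* had fewer than 20 reads in labeled replicate 3 and were not placed.

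*Ftl1* is also the gene of the 7 with the most near-identical sequence elsewhere in the genome. Its interval matched 13 other places in GRCm39 at 90% identity or more over at least 80% of its length, 7 of them at 98% or more, and 4 differed by a single base (on chromosomes 4, 11, 13 and 17). *Fth1* had 3 such copies and *Pcbp1* had 1, none at 98%, and *Tfrc*, *Ireb2*, *Aco1* and *Pcbp2* had 0. The counts of *Ftl1* are therefore uncertain. No multiply mapped read was listed in the deposited counts for any interval, but the sources used here do not describe how reads that match several places were handled. The one annotated copy examined, *Ftl1-ps2*, chosen after its values were seen, held 58, 18 and 11 reads in the labeled and 77 and 24 in the unlabeled libraries, most in the libraries numbered 1. In CPM these were 36.8, 15.1 and 21.7 against 41.8 and 24.1, while *Ftl1* itself ranged from 14.7 to 421 CPM. Whether read placement has a part in the *Ftl1* counts was not tested.

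**Figure D4:**
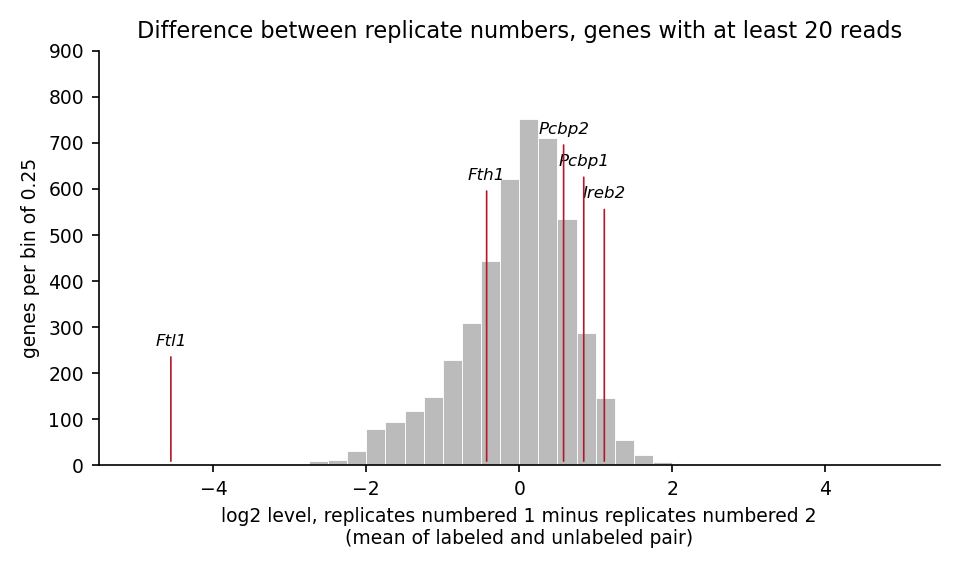
Number of genes by the log2 difference in level between libraries numbered 1 and libraries numbered 2, averaged over the labeled and unlabeled pair, for 4619 genes with at least 20 reads in every library (bars, bins of 0.25), with red lines at 5 of the 7 iron genes. *Ftl1* at -4.56 is outside the bulk of genes, while *Fth1*, *Pcbp1*, *Pcbp2* and *Ireb2* are within it.

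The pattern of *Fth1* over the 5 libraries was most like those of *Hspa9*, *Gorasp2* and *Wdr1*, by the root mean square difference of log2 levels centred on each gene's mean (0.0503, 0.0507 and 0.0511, against a median of 0.360 over 932 genes with at least 100 reads in every library). For *Tfrc* the closest were *Oxct1* (0.190), *Dclk1* (0.222) and *Epas1* (0.256), with a median of 0.708 over 933 genes. *Oxct1* stood at 294, 413 and 342 CPM in the labeled and at 678 and 1025 CPM in the unlabeled libraries. *Dclk1* stood at 479, 591 and 524 against 831 and 1093 CPM. *Epas1*, which encodes a hypoxia-inducible factor, stood at 313, 336 and 314 against 484 and 634 CPM. The *Epas1* transcript has an iron-responsive element, and whether that bears on its level was not tested. *Ftl1*, added after its values were seen, was closest to LOC118568312 (0.340) and *Aldoa* (0.945), with a median of 2.16 over 933 genes. LOC118568312 was likewise low in the libraries numbered 1, at 202, 3834 and 4666 CPM in the labeled and 254 and 3535 CPM in the unlabeled libraries, so *Ftl1* was not alone in this pattern.

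The other iron genes were taken from a list of 78 in 9 groups, of which 61 had enough reads for edgeR's test. None of the 61 passed the adjusted p, and 9 (14.8%) were below an unadjusted p of 0.05, against 5.98% of all genes tested, 2 higher and 7 lower. With the replicate number as a block, 12 passed the adjusted p, 4 higher and 8 lower, *Steap1*, *Steap2*, *Steap3*, *Steap4*, *Scara5*, *Slc39a14*, *Slc40a1*, *Heph* and *Cul1* among them, beside 5.39% of all genes higher and 6.29% lower. The median log2 fold change of the 61 without the block was -0.02, beside 0.02 over all 9806 genes. All labeled values lay above both unlabeled ones for 6 of the 61 (8.21% of all genes) and below them for 12 (13.1% of all genes). All 64 with a covered T in every library had a raised T>C rate by the beta-binomial test at the unadjusted 0.05, near the 95.1% of all genes.

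Among genes of uptake, 1 of 11 tested was higher and 3 were lower at the unadjusted p, beside 2.85% higher and 3.13% lower of all genes. The STEAP proteins are membrane metalloreductases, and their genes differed in direction. *Steap4* had 15.2, 15.9 and 7.90 CPM in the labeled and 61.9 and 45.2 CPM in the unlabeled libraries, a log2 fold change of -1.90 ± 0.36 (SE). *Steap3*, the reductase of transferrin endosomes, is named because of its value and had -0.90 ± 0.29, with 53.3 to 63.2 against 94.97 and 129.5 CPM. *Steap1* had 1.09 ± 0.35, with 49.4 to 59.6 against 36.4 and 19.1 CPM. For each of the 3 the groups did not overlap. *Steap2* had 0.57 ± 0.25 and missed the unadjusted threshold, though its groups did not overlap either (312, 256 and 225 against 212 and 166 CPM). Of all genes, 8.21% had every labeled library above both unlabeled ones and 13.1% had every one below.

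*Scara5*, a receptor that can take up ferritin, had 10.2, 5.86 and 3.95 against 37.4 and 17.1 CPM and a log2 fold change of -1.86 ± 0.52 (SE), on as few as 2 reads in a library. *Slc11a2*, the divalent metal transporter that moves iron out of endosomes, had 0.07 ± 0.37, and *Slc39a14*, an importer of iron outside the transferrin route, had 0.53 ± 0.29. *Lrp1*, an endocytic receptor that takes up heme bound to hemopexin, had -0.07 ± 0.30. All of these edgeR values are on the log2 scale, and without the block none passed the adjusted p.

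For export, 1 of 3 tested genes was lower at the unadjusted p (3.13% of all genes), *Heph*, a membrane ferroxidase (-0.74 ± 0.27, SE), named because of this value. *Slc40a1*, ferroportin, the iron exporter, had 5.71, 16.7 and 5.93 against 22.2 and 24.1 CPM, with a log2 fold change of -1.17 ± 0.54 that missed that threshold. *Cp*, the ferroxidase ceruloplasmin, was read at 727 to 1148 CPM and had -0.17 ± 0.26. The T>C rate of *Cp*, 0.0105 ± 0.00177 (SD, n = 3), was the lowest of the 13 deeply covered iron genes.

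**Figure D5:**
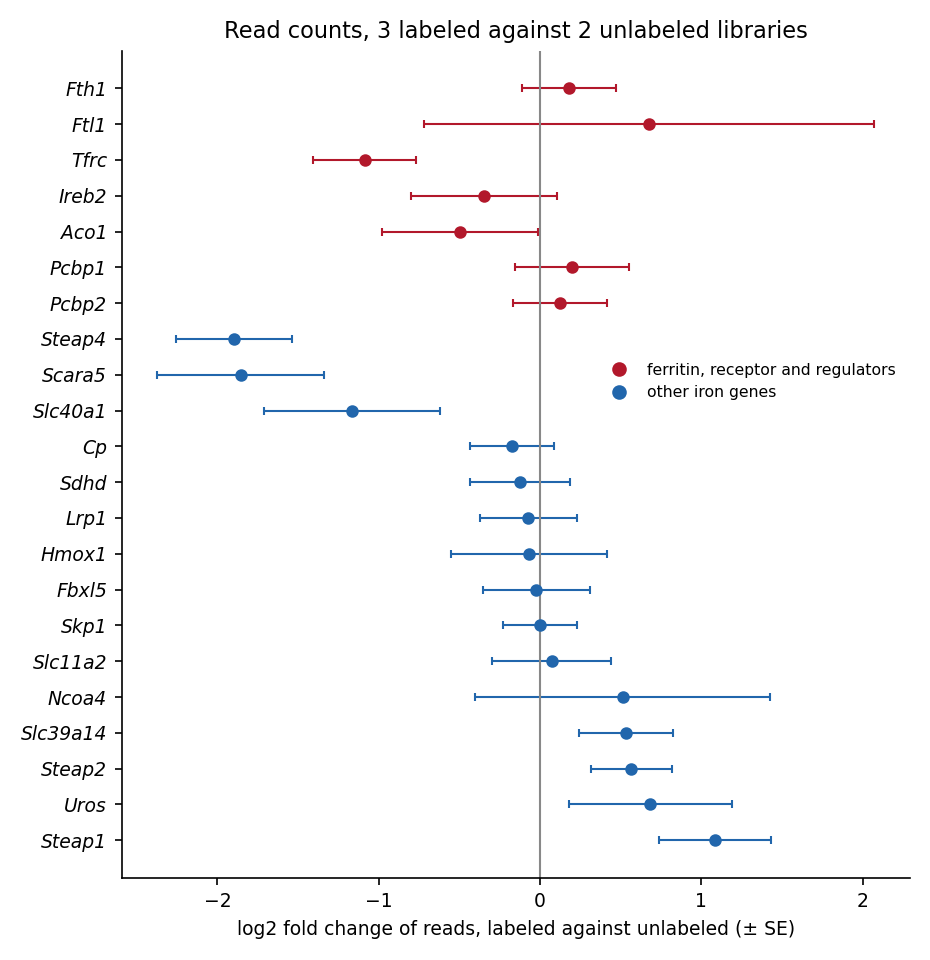
Log2 fold change of reads, labeled against unlabeled, from edgeR's quasi-likelihood test, with bars of ± SE, for the 7 genes (red) and the other iron genes named in the text by rule (blue). None passed an adjusted p of 0.05; *Tfrc*, *Steap4* and *Scara5* are among those below 0, and *Steap1* is among those above it, by more than their SE.

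Of the genes that turn over ferritin, 0 of 3 tested were below the unadjusted p of 0.05 in edgeR, and of those that control or sense the iron regulatory proteins, 1 of 6, beside 5.98% of all genes. *Ncoa4*, the receptor that carries ferritin to lysosomes, had 37, 18 and 0 reads in the labeled and 28 and 5 in the unlabeled libraries (log2 fold change 0.51 ± 0.91, SE). *Fbxl5*, the iron-sensing part of the ubiquitin ligase that removes iron regulatory protein 2, had -0.02 ± 0.33. Its partner *Skp1* had 0.00 ± 0.23. *Cul1*, the scaffold of that ligase, was that 1 gene and is named because of it (-0.75 ± 0.25), with a T>C rate of 0.0396 ± 0.00199 (SD, n = 3).

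The T>C rates of the 13 deeply covered iron genes had a median of 0.0395, close to the 0.0388 of all deeply covered genes. The 3 lowest were *Cp*, *Lrp1* (0.0233 ± 0.00404) and *Skp1* (0.0363 ± 0.00224). The 4 highest were *Hmox1*, the heme-degrading oxygenase that releases iron (0.0480 ± 0.00246), *Steap2* (0.0462 ± 0.00332), *Sdhd*, a subunit of succinate dehydrogenase (0.0458 ± 0.00154), and *Slc39a14* (0.0436 ± 0.00225; SD, n = 3 each). *Fth1*, with 0.0300, was below all but *Cp* and *Lrp1* of these 13.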

How the data were processed

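SLAMseq 3′ end libraries of CF were analysed, 3 labeled with S4U and 2 unlabeled, grouped by the submitters' labels. The authors moved unique molecular identifiers into read headers, used SLAM-DUNK 0.4.3 with mm39 for mapping, collapsed UMI duplicates, and deposited raw counts of reads, covered T positions and conversions per interval, with a CPM and a conversion rate beside them. The deposited CPM divides by more reads than were counted on the intervals, so CPM was recomputed. The deposited conversion rate is a fraction. Each table held 97442 rows and 40428 distinct intervals. For a gene with several intervals, the one with most CPM on average over labeled libraries was used, the shorter one at ties.

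Rates were compared by a beta-binomial likelihood-ratio test, which is approximate with 5 libraries: on simulated data it called more unchanged intervals than its threshold allows, and more so with strong overdispersion. Reads were compared with edgeR 4.0.16 (TMM, filterByExpr, R 4.3.3), with DESeq2 1.42.0 and limma 3.58.1 as alternatives. Single values were compared by exact permutation tests (scipy 1.17.1, numpy 2.4.6, pandas 2.3.3, Python 3.11.15). Copies were found with BLAST 2.17.0. Chromosome sequence and annotation were those of GRCm39.

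Named were the 7 genes, the iron genes passing the adjusted p, the 4 highest and 4 lowest T>C rates, the 3 largest rises and falls of reads, *Slc40a1*, *Slc11a2*, *Ncoa4*, *Fbxl5* and *Hmox1*, and the 3 genes most like *Fth1* and *Tfrc*; others are said to be outside this rule. Some genes that the rule selects are left out of the text and plots and not reported here. Genes and lists were chosen with earlier results of these data known. Alternatives were other filters, size factors, pseudocounts, interval choices and thresholds, the replicate block and each library left out; leaving out both libraries numbered 1 was added after the data were seen.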

Additional observations from a re-analysis of the deposited data

How the results depend on the processing

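Of 154 alternative values, 138 were classed as the same as the main value. For read changes of single genes this meant the same direction and side of the threshold. For rate and ratio differences it meant the same direction only. Counts had to stay within a fixed factor, and levels within the SD over libraries, of the main value. When 1000 covered T positions were required per library, 4 of the 7 genes and 13 other iron genes could be tested and all were raised, since fewer genes pass that minimum. Per kilobase of interval, the log2 ratio of *Fth1* to *Tfrc* was 9.08 in place of 5.22, and that of *Ftl1* to *Tfrc* was 5.39 in place of 1.48, because the intervals differ in length. With the replicate block in edgeR, 1 of the 7 genes passed the adjusted p, *Tfrc* (log2 fold change -1.005, adjusted p = 0.00111), as did 12 other iron genes, 4 higher (*Slc39a14*, *Steap1* and *Steap2* among them) and 8 lower (*Bmp6*, *Cul1*, *Epas1*, *Heph*, *Scara5*, *Slc40a1*, *Steap3*, *Steap4*), where the block called 529 genes higher (5.39%) and 617 lower (6.29%). The methods describe separate preparations and controls incubated in parallel, but no source used here ties a control to a preparation by its number. Deviations from the group mean correlated at 0.784 and 0.638 across 9806 genes, but only 2 pairs exist, so the block is no main result.

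With each library left out in turn, the log2 fold change of reads ranged from -0.077 to 0.48 for *Fth1*, -0.28 to 4.14 for *Ftl1*, -0.85 to 0.22 for *Ireb2*, -0.11 to 0.57 for *Pcbp1* and -0.058 to 0.30 for *Pcbp2*, and none passed the test. The *Tfrc* minus *Fth1* rate ranged from -0.0114 to 0.000272, the upper value without labeled replicate 3. The count of raised rates stayed at 7 of the 7 genes and ranged from 60 to 63 for the other iron genes. The *Ftl1* to *Tfrc* difference ranged from 0.03, without unlabeled replicate 1, to 4.14, without unlabeled replicate 2, on the log2 scale. The log2 level of *Ftl1* over *Tfrc*, 1.48 over all libraries, ranged from 0.90 without labeled replicate 3 (0.904 without labeled replicate 2) to 2.30 without unlabeled replicate 1. Without both libraries numbered 1 it was 3.28, that of *Fth1* over *Tfrc* was 5.42, and the labeled minus unlabeled differences were 1.49 and 1.30. The causes were not tested. *Tfrc* rests on 10 to 96 reads per library, and *Ftl1* on 24 to 503.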

Other observations

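Of 13 tested genes of heme synthesis and breakdown, 0 were below an unadjusted p of 0.05 in edgeR, where 5.98% of all genes were, and their median log2 fold change was 0.11. *Uros*, an enzyme of heme synthesis, had 0.68 ± 0.51 (SE), and *Hmox1* had -0.07 ± 0.48 with 272, 116 and 148 against 290 and 109 CPM. *Hmox1* was thus highest in the libraries numbered 1, as *Ireb2* and *Aco1* were. *Bmp6*, a ligand that induces hepcidin in the liver, had -0.66 ± 0.28, with 33.6 to 39.3 against 70.0 and 54.2 CPM, and is named because of this value.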
